A study of Mus musculus with 14 samples.

Results

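The genes described here are those of the cornified envelope and of the kallikrein family. They were chosen by symbol as the late cornified envelope genes (Lce followed by a digit), the small proline-rich genes (Sprr followed by a digit), the kallikreins (Klk followed by a number only), Ivl (involucrin), Lor (loricrin) and Flg (filaggrin). Of 23284 genes in the deposited tables, 47 met the rule, namely 18 Lce, 14 Sprr and 13 Klk genes together with Ivl and Lor, and Flg was in neither table. In at least 1 library, 12 of the 47 reached 1 FPKM (fragments counted for a gene, scaled to the length of its exons and to all mapped fragments of the library) and these were followed. A further 14 were above 0 but below 1 FPKM, and 21 were listed at 0 in every library.

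EpH4 cells are an epithelial line from the mouse mammary gland, and EpRas cells are EpH4 cells transformed with an activated H-Ras. Both lines were left untreated or stimulated with 1 ng/ml TGF-β3 for 48 h, with 2 libraries in each of the 4 groups, and EpH4 cells were kept in 10% serum but EpRas cells in 4%, so transformation and serum cannot be told apart in any comparison of the lines. A second experiment, prepared independently, used EpRas cells in 4% serum that received either siNC, a control siRNA, or siRNAs to Etv4 and Etv5 given together as 2 separate pairs, without and with the same TGF-β treatment. It has 1 library for each of its 6 conditions, so its differences have no replicate check. Each comparison of the lines thus rests on 1 transformed derivative and its parent. The study describes the libraries of the lines as biological replicates.

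The cornified envelope is the protein shell that replaces the plasma membrane of the outermost cells of the epidermis. Involucrin, loricrin, the small proline-rich proteins and the late cornified envelope proteins are its building blocks, joined to each other by transglutaminases, and their genes lie together in the epidermal differentiation complex. Kallikreins are secreted serine proteases encoded in 1 cluster, and in the epidermis several of them cut the junctions that hold the dead cells together. Mammary epithelium does not cornify under normal conditions.

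The luminal keratins Krt8 (561 to 2197 FPKM) and Krt18 (868 to 1619 FPKM) were high in every library, with Epcam at 64.9 to 534 FPKM. Krt19, also a luminal keratin, was listed at 0 in the 4 EpH4 libraries and lay between 17.1 and 59.3 FPKM in the EpRas libraries of both experiments. Defining markers of cornifying epidermis were not: Krt1 and Dsg1a were listed at 0 throughout and Lor did not pass 0.324 FPKM, while Krt10 lay between 1.42 and 3.18 FPKM. Of the basal markers, Krt14 reached 851 FPKM but Krt5 did not pass 0.0856 FPKM. Of the fibroblast markers, Lum was listed at 0 in all libraries and Dcn did not pass 0.303 FPKM, but Pdgfra reached 6.79, Col1a2 13.2 and Col1a1 224 FPKM. The 5 fibroblast markers had summed levels of 21.7 and 25.8 FPKM in EpH4 cells without TGF-β, of 239 and 214 FPKM with it, and of 5.76 FPKM or less in untransfected EpRas cells. Of the leukocyte markers, Ptprc did not pass 0.0267 FPKM and Cd3e 0.305 FPKM, while Cd68 ran from 0.293 to 7.13 FPKM, and of the endothelial markers Pecam1 did not pass 0.265 FPKM and Cdh5 1.80 FPKM. The part of these markers in the results was not tested. The deepest library had 2.23 times the reads of the shallowest among the untransfected cells and 1.74 times among the transfected cells. The 2 libraries of EpRas cells with TGF-β were the least alike of the replicates (Pearson's r = 0.912 across genes on log2 values, against 0.957 to 0.982 in the other groups).

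On chromosome 3 (GRCm38/mm10), Lce1f at chr3:92718685-92720350, Lce1g at chr3:92750148-92752338 and Lce1h at chr3:92763215-92765065 are neighbours on the minus strand, and these were the only Lce genes that reached 5 FPKM. Ivl (chr3:92570902-92573735) and Sprr1a (chr3:92483952-92485895) lie in the same complex, also on the minus strand. On the plus strand of chromosome 7, Klk10 (chr7:43781035-43785410) and Klk8 (chr7:43797577-43803826) reached 5 FPKM, and Klk9, which lies between them, stayed below 1 FPKM. These 7 genes are all annotated as protein coding in GENCODE, and their order and levels are shown in the map of the Lce and Klk genes.

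**Figure D1:**
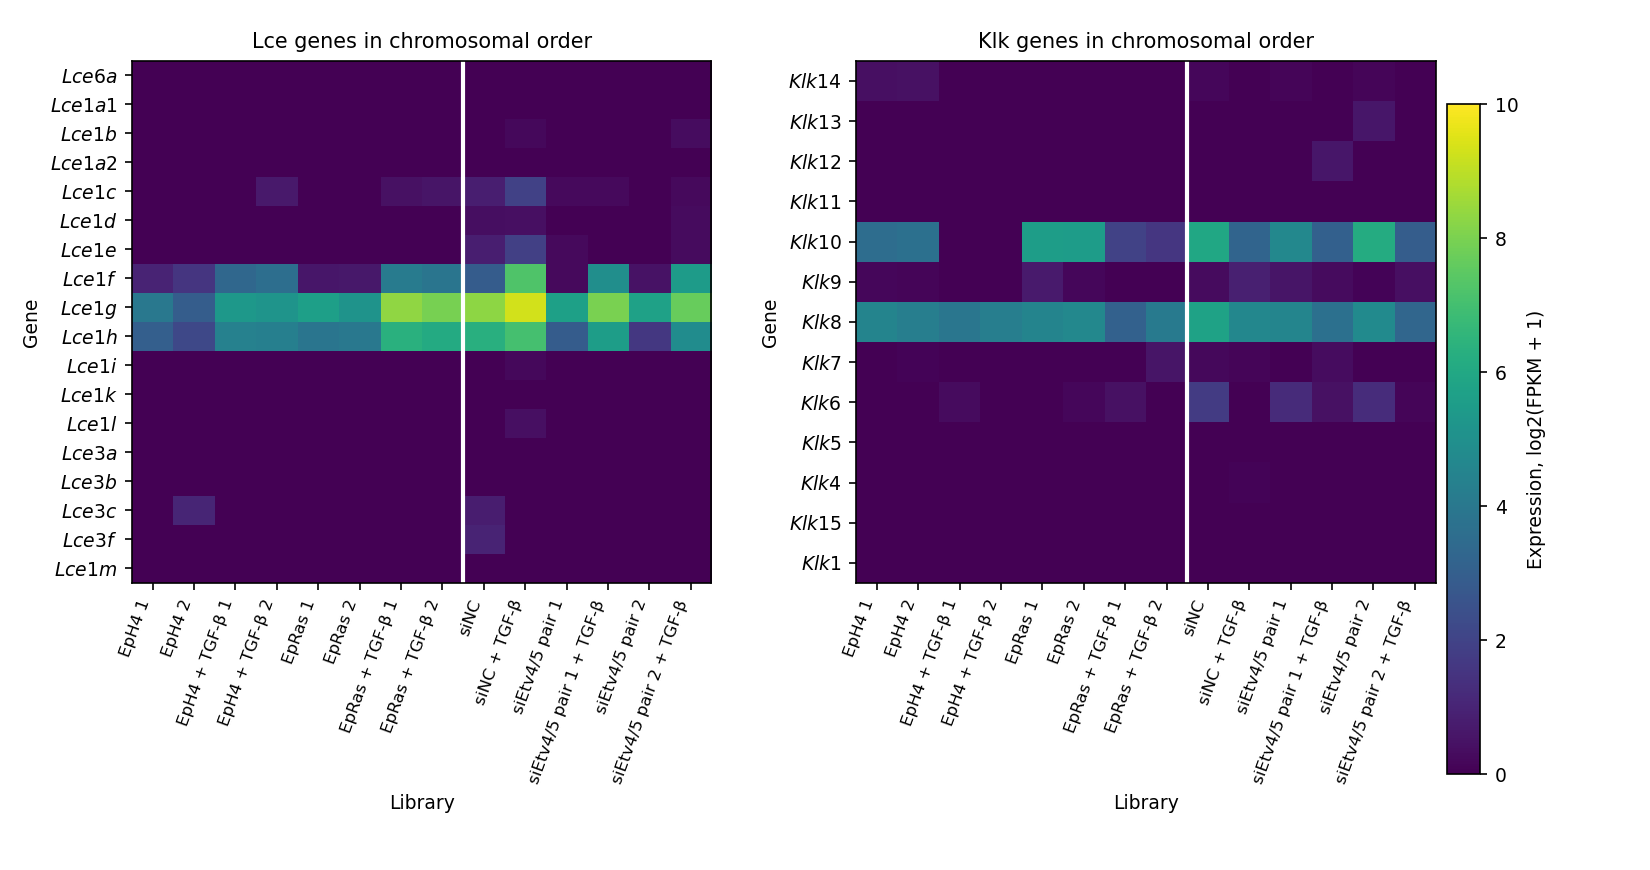
Expression of the 18 Lce genes (left) and 13 Klk genes (right) as log2(FPKM + 1), with genes (rows) in the order of their start on the chromosome, not to scale, and libraries (columns) grouped by experiment, the white line separating 8 untransfected from 6 siRNA libraries. The 3 neighbours Lce1f, Lce1g and Lce1h and the pair Klk10 and Klk8 stand out, with faint signal in others such as Lce1c, Lce1e and Klk6.

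The upstream sequences of Lce1g, Lce1h, Ivl and Sprr1a, 4 genes that were lower with the siRNAs, are shown to compare the related Lce promoters with those of the other envelope genes. Each is the 250 bases before the transcription start of the RefSeq entry (GRCm38.p6, minus strand, written 5′ to 3′), at chr3:92752339-92752588 for Lce1g, chr3:92765066-92765315 for Lce1h, chr3:92573736-92573985 for Ivl and chr3:92485882-92486131 for Sprr1a. Capitals mark matches to 4 short motifs searched on both strands, TGANTCA (AP-1), CNGGAAGT (ETS), CAGACA (Smad) and TATAAA (the TATA box).
Lce1g: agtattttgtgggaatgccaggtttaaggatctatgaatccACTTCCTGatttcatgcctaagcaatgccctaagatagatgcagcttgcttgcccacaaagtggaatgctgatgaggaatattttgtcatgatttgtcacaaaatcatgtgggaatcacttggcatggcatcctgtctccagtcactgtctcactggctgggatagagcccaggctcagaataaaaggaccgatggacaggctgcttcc
Lce1h: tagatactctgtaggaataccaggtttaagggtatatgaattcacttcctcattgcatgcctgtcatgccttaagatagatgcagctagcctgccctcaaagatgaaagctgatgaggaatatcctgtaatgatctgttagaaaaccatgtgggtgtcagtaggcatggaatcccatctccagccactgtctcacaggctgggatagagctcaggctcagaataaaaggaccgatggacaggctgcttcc
Ivl: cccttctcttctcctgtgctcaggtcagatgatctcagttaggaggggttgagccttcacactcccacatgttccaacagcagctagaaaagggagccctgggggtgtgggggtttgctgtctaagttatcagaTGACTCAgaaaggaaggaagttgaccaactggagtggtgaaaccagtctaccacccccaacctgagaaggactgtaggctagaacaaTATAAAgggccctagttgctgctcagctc
Sprr1a: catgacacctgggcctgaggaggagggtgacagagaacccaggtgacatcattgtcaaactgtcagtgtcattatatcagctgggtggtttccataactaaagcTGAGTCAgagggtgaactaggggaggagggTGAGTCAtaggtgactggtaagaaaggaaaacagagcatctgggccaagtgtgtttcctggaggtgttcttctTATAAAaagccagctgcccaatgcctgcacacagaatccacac
The Lce1g sequence held 1 ETS match, on the opposite strand at -209 to -202 counted from the start, and no other match, and Lce1h held none of the 4 motifs. Sprr1a held 2 AP-1 matches at -146 and -116 and Ivl 1 at -116, each with a TATA box downstream. Over the 300 bases that run to 50 after the start, the Lce1g and Lce1h promoters were 84.6% identical in an alignment, against 45.6% for Ivl and Sprr1a. Klk10 and Klk8 held none of the motifs, Sprr2h held an AP-1 match and a TATA box, and 1 of the 2 Klk6 entries held a Smad match. Among 32851 promoters of this length in the table, 7.81% held the AP-1 motif, 9.53% the ETS motif, 21.0% the Smad motif and 13.6% the TATA box. A match of letters is a description of the sequence and was not tested for binding here. The study mapped Etv4 and Etv5 binding by ChIP-seq in EpRas cells given TGF-β, and those data were not used.

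In untransfected cells, 5 of the followed genes reached the 5 FPKM in any library that a gene needed to be tested, namely Lce1f, Lce1g, Lce1h, Klk10 and Klk8. Reads were recovered from the steps of the low FPKM values, and the transcripts of Lce1f, Lce1g and Lce1h share 13.8, 17.8 and 18.9% of their 50-base words with other Lce genes, so part of their reads could be assigned to a neighbour. No such word was shared by Klk10, Klk8, Klk6, Ivl, Sprr1a or Sprr2h with others of the families. Fewer expressing cells and less RNA per cell cannot be told apart in these bulk samples.

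First, the lines were compared, to learn how the transformed cells differ from their parents. EpRas cells had more Lce1g, Lce1h and Klk10 than EpH4 cells, whereas Klk8 and Lce1f did not pass the test in either condition. Lce1g was at 14.9 and 6.62 FPKM in untreated EpH4 cells and at 48.5 and 34.6 FPKM in untreated EpRas cells. Lce1h was at 7.09 and 3.48 FPKM in EpH4 cells and at 13.8 and 14.9 FPKM in EpRas cells. For both genes the 2 EpH4 libraries lay further apart than the 2 EpRas libraries on the log2 scale.

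The levels of these envelope genes were 3.86-fold (Lce1g) and 2.72-fold (Lce1h) higher in EpRas cells by the ratio of mean FPKM. On the log2(FPKM + 1) scale, which lessens the fold of low values, the differences were 1.93 ± 0.35 (SE, n = 2 libraries per group; limma, Benjamini-Hochberg adjusted p = 0.00990) and 1.35 ± 0.27 (adjusted p = 0.0145). Klk10, a kallikrein that is often low in breast cancer cells, was at 10.8 and 11.9 FPKM in EpH4 cells and at 46.1 and 45.5 FPKM in EpRas cells. The 2 libraries of each line lay close together, with means of 11.3 ± 0.771 and 45.8 ± 0.407 FPKM (SD, n = 2). The log2 difference of Klk10 was 1.93 ± 0.17 (limma, adjusted p = 0.000439), a 4.04-fold higher mean.

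Lce1f was low in untreated cells, at 0.991 and 1.95 FPKM in EpH4 and 0.542 and 0.583 FPKM in EpRas cells, which is 3, 8, 1 and 2 reads. It was lower in both EpRas libraries but the difference of -0.63 ± 0.22 on the log2 scale did not pass the test (limma, adjusted p = 0.0972). Klk8, known as neuropsin, was at 21.6 and 18.3 FPKM in EpH4 and 21.7 and 24.7 FPKM in EpRas cells. Its libraries nearly touched, and the log2 difference of 0.21 ± 0.32 did not pass (limma, adjusted p = 0.695). Thus 3 of the 5 tested genes were called higher and 0 lower, where 8.45% of all 9100 genes tested were called higher and 9.11% lower. The calls of Lce1g and Lce1h were lost without replicate 1 of untreated EpRas cells (limma, adjusted p = 0.0720 and 0.0704) and that of Lce1h also without replicate 2 (0.0766), while Klk10 stayed at or below 0.00653 in the alternatives run. Both were also lost when the fit held the 2 compared groups alone (limma, adjusted p = 0.0522 for Lce1g and 0.0629 for Lce1h), and with 0.1 FPKM added in place of 1 Lce1f was called lower (limma, adjusted p = 0.0422).

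With TGF-β, the same 3 genes were called higher in EpRas cells, and Lce1g stood at 282 ± 53.6 against 37.5 ± 2.96 FPKM (SD, n = 2), or 7.52-fold. Lce1h was at 74.3 ± 8.43 against 19.5 ± 0.883 FPKM, or 3.81-fold. The log2 differences were 2.87 ± 0.35 for Lce1g (limma, adjusted p = 0.00138) and 1.87 ± 0.27 for Lce1h (adjusted p = 0.00295). Klk10 was at 2.93 and 1.99 FPKM in EpRas cells and listed at 0 in both EpH4 libraries, which held no read of it. With 3 reads per library as the floor, its mean was at least 4.79-fold higher in EpRas cells (log2 difference 1.78 ± 0.17, limma, adjusted p = 0.000441). That log2 difference ran from 0.57 with 5 FPKM added to 4.65 with 0.1 FPKM added. Lce1f did not pass (log2 difference 0.54 ± 0.22, limma, adjusted p = 0.129) although both EpRas libraries were higher. Klk8 overlapped between the lines (log2 difference -0.49 ± 0.32, limma, adjusted p = 0.313), but without replicate 2 of treated EpRas cells it was called lower (-0.99, limma, adjusted p = 0.0252), and without replicate 1 its difference was 0.00996. Of all genes tested, 8.92% were called higher and 12.3% lower in this comparison, against 3 and 0 of these 5.

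**Figure D2:**
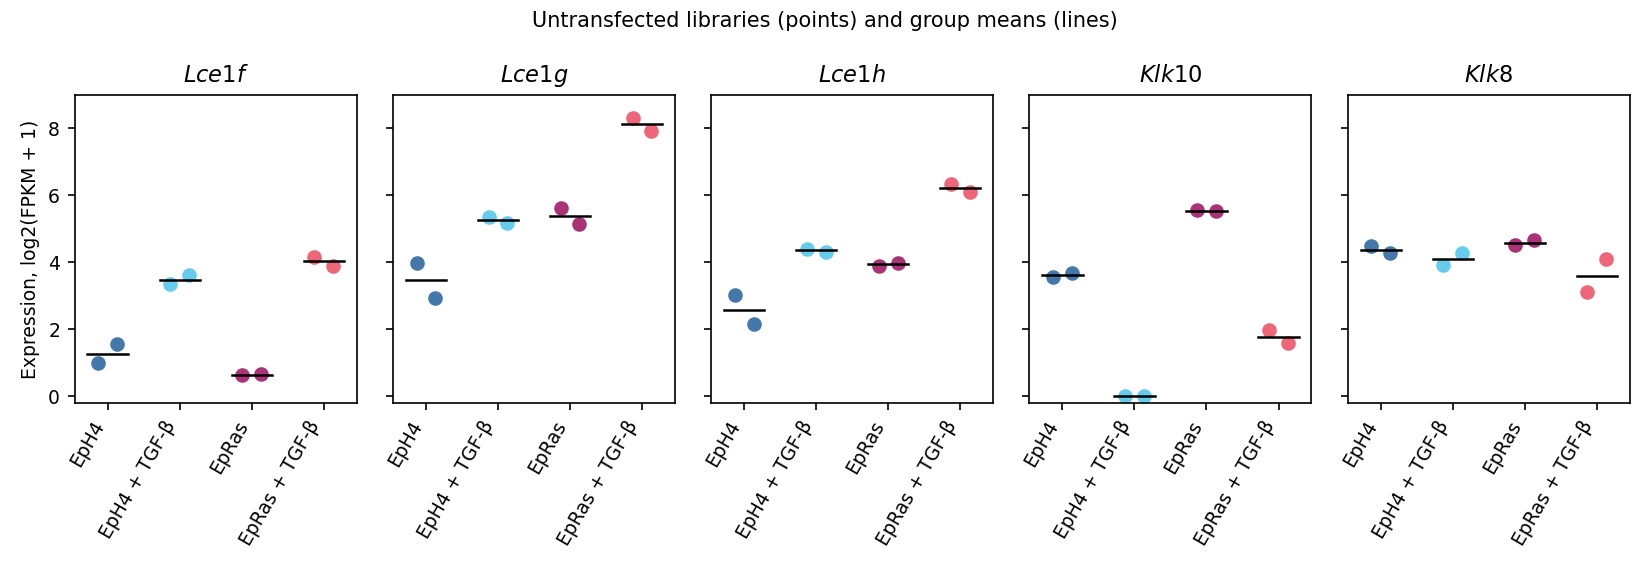
Expression of 5 genes in the 8 untransfected libraries as log2(FPKM + 1), with 2 points for the libraries and a line for their mean in each of the 4 groups. The 3 Lce genes are highest in EpRas cells with TGF-β, whereas Klk10 is highest in untreated EpRas cells and listed at 0 in EpH4 cells with TGF-β.

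Each line was then examined for its response to TGF-β, and the tested Lce genes moved in the opposite direction to Klk10. In EpH4 cells TGF-β raised Lce1f, Lce1g and Lce1h and lowered Klk10. Lce1f was at 9.15 and 11.4 FPKM with TGF-β, from 20 and 37 reads, above both untreated libraries. By the summed reads of the 2 libraries, 57 with and 11 without TGF-β, this was 6.80-fold (95% interval 3.53 to 14.4 by Clopper-Pearson, counting error only). Lce1g rose to 39.6 and 35.4 FPKM and Lce1h to 20.1 and 18.9 FPKM, each above both untreated libraries.

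Klk10 fell from 73 and 109 reads in untreated EpH4 cells to none in either treated library, so its mean was at least 22.1-fold lower against a floor of 3 reads per library. No library of the other groups lacked reads of Klk10. Klk8 was at 14.1 and 18.3 FPKM with TGF-β, and the upper value was almost that of the lower untreated library. The log2 changes were 2.21 ± 0.22 for Lce1f (limma, adjusted p = 0.00114), 1.81 ± 0.35 for Lce1g (0.0208) and 1.77 ± 0.27 for Lce1h (0.00774). That of Klk10 was -3.62 ± 0.17 (limma, adjusted p = 6.07e-05), and that of Klk8, -0.29 ± 0.32, did not pass (0.637). Over the alternatives run, the change of Klk10 ranged from -6.83 to -1.71. Lce1f and Klk10 had reached 5 FPKM in treated libraries alone and in untreated libraries alone, so the filter fixed their direction and they are left out of the count. Of the other 3 genes, 2 were called higher and 0 lower with TGF-β in EpH4 cells, where 6.48% and 2.91% of all genes were. Without either TGF-β library of EpH4 cells Lce1g (limma, adjusted p = 0.155 without replicate 1 and 0.113 without replicate 2) and Lce1h (0.0780 and 0.0648) lost their calls, and Lce1g also without replicate 2 of untreated EpH4 cells (0.0715). In the fit of the compared groups alone they were at 0.0675 and 0.0501 (limma, adjusted p).

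The same 4 genes were called in EpRas cells, where the filter again fixed the direction of Lce1f and Klk10. Lce1g, the most abundant of the family, was at 320 and 244 FPKM with TGF-β. Lce1h was at 80.2 and 68.3 FPKM and Lce1f at 16.9 and 13.9 FPKM. All 6 of these values were above every other untransfected library for their gene. Lce1f rested on 1 and 2 reads in untreated EpRas cells against 44 and 28 with TGF-β, a ratio of 27.4 with a counting interval of 9.02 to 136. Klk10 fell to 2.93 and 1.99 FPKM, from 190 and 349 reads to 17 and 9, which was 18.6-fold lower by the means.

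In EpRas cells the log2 changes were 3.39 ± 0.22 for Lce1f (limma, adjusted p = 0.000480), 2.74 ± 0.35 for Lce1g (0.00622), 2.29 ± 0.27 for Lce1h (0.00450) and -3.77 ± 0.17 for Klk10 (0.000181). Klk8 was at 7.61 and 16.2 FPKM with TGF-β, below both untreated libraries but far apart, and its change of -0.99 ± 0.32 did not pass (limma, adjusted p = 0.176). The tests of Klk8 and Lce1g turned on 1 library. Without replicate 2 of the treated cells the change of Klk8 was -1.49 with an adjusted p of 0.0256 by limma, and without replicate 2 of untreated EpRas cells Lce1g lost its call (limma, adjusted p = 0.0555). Across all genes 1.90% were called higher and 1.92% lower with TGF-β in EpRas cells, against 2 and 0 of the 3 genes whose direction the filter left free. The comparisons of the lines and of TGF-β share their libraries and are not independent of each other.

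None of the 5 genes was called for a difference between the lines in the TGF-β effect itself, which is the interaction in limma and which called 0.802% of all genes. Only Lce1f had an unadjusted p under 0.05, with a change that was larger in EpRas cells by 1.18 ± 0.32 on the log2 scale (unadjusted p = 0.00706, limma adjusted p = 0.225). Among all 9100 genes tested, 990 had an unadjusted p under 0.05 for the interaction. The interactions of Lce1g (0.94 ± 0.49, limma adjusted p = 0.553) and Lce1h (0.52 ± 0.38, adjusted p = 0.659) were also positive. For Klk10 the sign of the interaction turned with the constant added to FPKM, from -0.15 with 1 FPKM (limma, adjusted p = 0.863) to 2.65 with 0.1 FPKM (0.0173) and -1.06 with 5 FPKM (0.0372), as its treated EpH4 libraries were listed at 0.

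**Figure D3:**
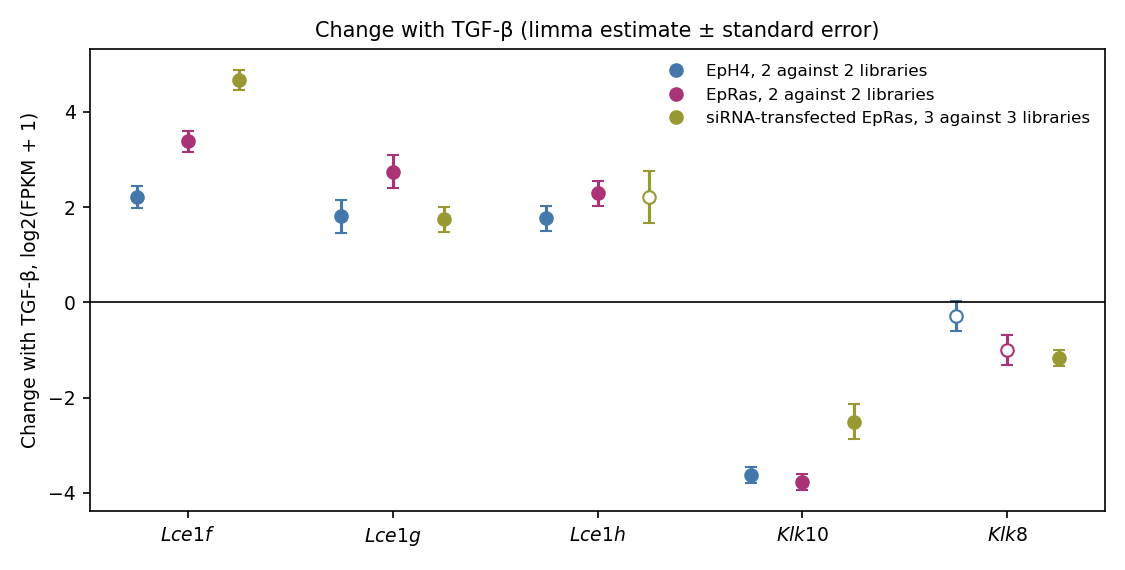
Change with TGF-β on log2(FPKM + 1) for 5 genes in EpH4 cells, EpRas cells and siRNA-transfected EpRas cells, as the limma estimate (points) with its standard error (bars). Filled points passed an adjusted p of 0.05 and open points did not, and the 3 Lce genes lie above 0 and Klk10 below it in all 3 settings.

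The siRNA experiment asked which genes need Etv4 and Etv5, a pair of ETS transcription factors, in EpRas cells. Both targets were lower in all 4 knockdown libraries, Etv4 at 19.6 to 48.5% of siNC and Etv5 at 14.2 to 23.2%, and the weakest of these was Etv4 with the second pair without TGF-β. The levels of Lce1f, Lce1g, Lce1h and Klk8 were lower than in siNC by at least 2-fold on log2(FPKM + 1), both without and with TGF-β, by the mean of the pairs. These are 4 of the 5 members that reached 5 FPKM in both siNC and knockdown libraries. Ivl and Sprr1a were lower by as much, but they reached 5 FPKM in a siNC library alone, so they could only count as lower and are described by their reads. Among all 9094 genes, 3.65% were lower by this much without TGF-β and 3.71% with it. With 1 library for each condition these are differences between libraries, given without a test. Markers of other cell types differed between these libraries too. The fibroblast markers summed to 4.42 FPKM with siNC and 9.51 FPKM with siNC and TGF-β, against 19.4 and 33.03 FPKM with the first pair and 7.11 and 10.4 FPKM with the second. Most of this was Col1a1 with the first pair, at 14.3 and 27.7 FPKM against 0.629 and 2.44 FPKM with siNC. The basal markers summed to 109 and 140.2 FPKM with siNC and to 214 to 365 FPKM in the knockdown libraries, the leukocyte markers to 5.20 and 6.52 against 2.18 to 3.94 FPKM, and the endothelial markers to 0.585 and 1.95 against 0.0262 to 0.208 FPKM. Their part in the knockdown differences was not tested.

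Lce1g was at 315 FPKM with siNC and at 51.0 and 51.8 FPKM with the first and second siRNA pair, from 1687, 371 and 353 reads. With TGF-β it was at 634 FPKM with siNC and at 255 and 201 FPKM with the pairs. The knockdown libraries thus held 16.2 and 16.4% of the siNC level without TGF-β and 40.3 and 31.7% with it, and the widest counting interval of these shares was 38.2 to 42.4%. Lce1h was at 77.6 FPKM with siNC and at 6.48 and 2.10 FPKM with the pairs, and with TGF-β at 133, 46.2 and 27.8 FPKM. Its shares of the siNC level were 8.35 and 2.70% without TGF-β and 34.7 and 20.9% with it.

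Lce1f was at 6.53 FPKM with siNC and at 0.192 and 0.410 FPKM with the pairs, which is 25, 1 and 2 reads. With TGF-β it was at 150.8 FPKM with siNC and at 29.9 and 43.3 FPKM with the pairs, from 1005, 158 and 205 reads. The shares left were 2.94% (interval 0.0717 to 18.0%) and 6.29% (0.722 to 25.2%) without TGF-β and 19.8 and 28.7% with it. In each of the 3 Lce genes, both pairs left a smaller share without TGF-β than either did with it, a contrast that was not tested. Even so, TGF-β went with higher Lce1f, Lce1g and Lce1h in all 3 siRNA settings: Lce1g was 2.01-fold higher with siNC, 5.01-fold with the first pair and 3.88-fold with the second.

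Ivl, an early scaffold protein of the envelope, was at 2.69 FPKM with siNC and 6.46 FPKM with siNC and TGF-β, from 34 and 142 reads. It was listed at 0 in both libraries of the first pair and stood at 0.0622 and 0.128 FPKM, or 1 and 2 reads, in those of the second. A floor of 3 reads, with the siNC reads taken as exact, put Ivl 15.4-fold lower with the first pair without TGF-β and 37.5-fold lower with it. The counting intervals, which cover both libraries, reached up to 8.44% of siNC without TGF-β and 3.32% with it. Sprr1a, a cross-linked bridging protein, was at 18.5 FPKM (81 reads) with siNC, 1.05 FPKM (8 reads) with siNC and TGF-β, and listed at 0 in all 4 knockdown libraries. Without TGF-β its level was 36.7-fold and 34.3-fold lower with the first and the second pair against the same floor. The counting intervals reached up to 3.43 and 3.66% of siNC. With TGF-β, where siNC held 8 reads, the folds were 2.11 and 1.89, and the intervals reached up to 73.9 and 82.5% of siNC.

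Klk8 was at 53.6 FPKM with siNC and at 22.6 and 26.4 FPKM with the pairs, and with TGF-β at 23.5, 12.0 and 8.94 FPKM. All 4 knockdown libraries held between 38.1 and 51.2% of the matched siNC library. Klk10 gave no common direction: it was at 61.0 FPKM with siNC, 24.2 FPKM with the first pair and 69.8 FPKM with the second, and the counting intervals of these shares (34.3 to 46.1% and 102 to 128%) lay on opposite sides of the siNC level. The wider intervals deposited with the FPKM overlapped. They were 31.5 to 90.4 FPKM with siNC, 10.8 to 37.7 FPKM with the first pair and 36.1 to 103 FPKM with the second. With TGF-β Klk10 was at 8.32, 7.45 and 6.71 FPKM, and both intervals included the siNC level (67.4 to 119% and 59.3 to 109%).

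**Figure D4:**
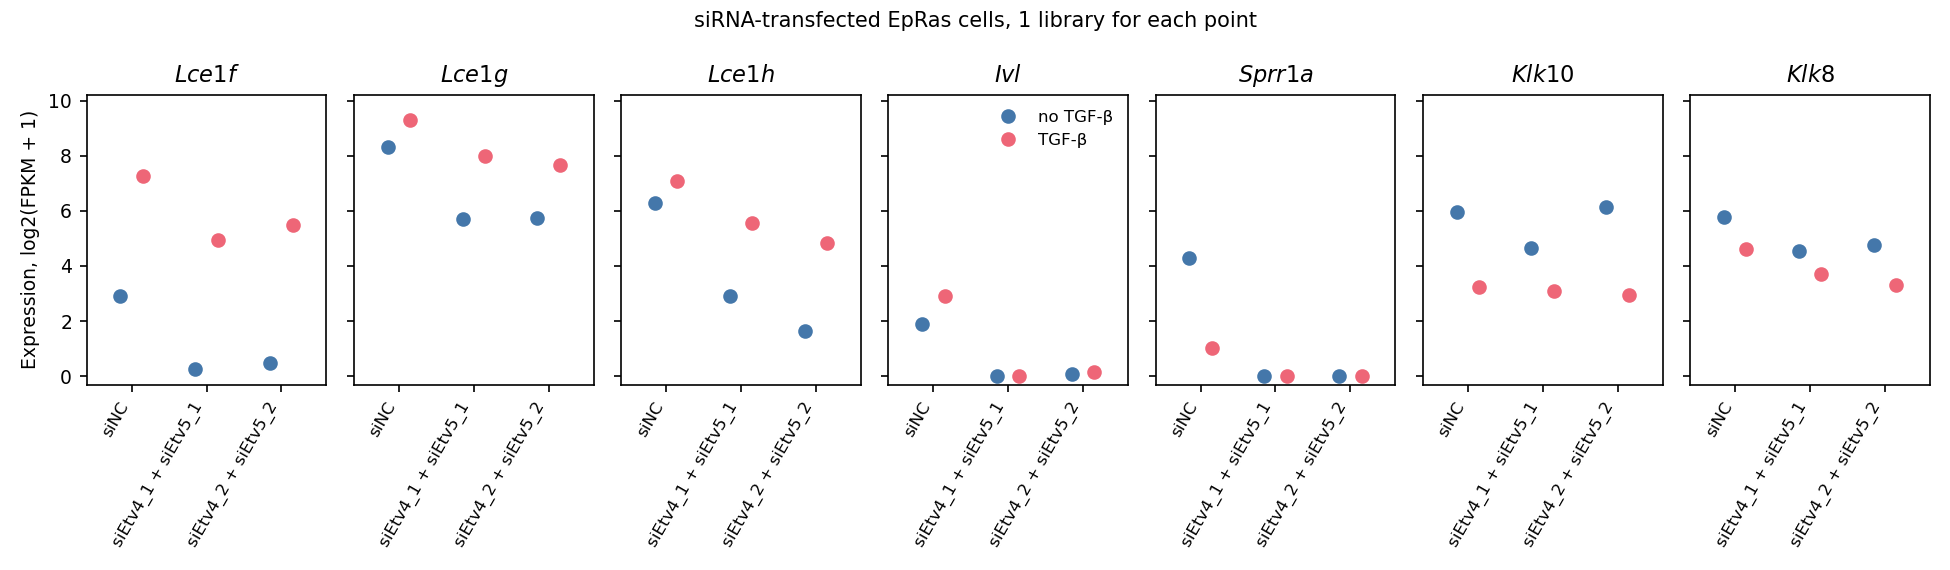
Expression of 7 genes in the 6 libraries of siRNA-transfected EpRas cells as log2(FPKM + 1), with 1 point for each library, without (blue) and with (red) TGF-β. Both siRNA pairs lie below siNC for the Lce genes, Ivl, Sprr1a and Klk8, whereas Klk10 is lower with the first pair and higher with the second when TGF-β is absent.

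A secondary limma model with a knockdown term and a TGF-β term used libraries of different conditions in place of replicates, so that any disagreement of the siRNA pairs counts as error. Its knockdown term called 3 of the 5 genes that the filter left free lower and 0 higher, where 1.35% of all genes were called lower and 0.770% higher. These were Lce1f (log2 change -2.29 ± 0.22, limma, adjusted p = 0.0205), Lce1g (-2.04 ± 0.27, 0.0326) and Klk8 (-1.10 ± 0.18, 0.0416). Ivl, whose direction the filter fixed, was at -2.33 ± 0.24 (limma, adjusted p = 0.0223). Lce1h (-2.95 ± 0.58, limma, adjusted p = 0.0606), Sprr1a (-2.66 ± 0.66, 0.0951) and Klk10 (-0.38 ± 0.40, 0.601) did not pass. These calls depended on the settings, as 0 members were called when all genes above 0 were tested or without the untreated library of the first pair, and 1 without either siNC library.

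The TGF-β term called Lce1f (4.67 ± 0.21, limma, adjusted p = 0.00292) and Lce1g (1.75 ± 0.26, 0.0295) higher and Klk10 (-2.50 ± 0.37, 0.0301) and Klk8 (-1.16 ± 0.17, 0.0269) lower, where 1.61% of all genes were called higher and 0.891% lower. Lce1h (2.22 ± 0.54, limma, adjusted p = 0.110), Ivl (0.37 ± 0.23, 0.474) and Sprr1a (-1.08 ± 0.63, 0.437) did not pass. The 2 to 1 calls left without any 1 of the 6 libraries always included Lce1f, which was 23.1-fold higher with TGF-β in siNC cells (counting interval 15.6 to 35.9).

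The siNC libraries stood apart from untransfected EpRas cells for several members, although the experiments were prepared independently and their FPKM normalized separately, so the levels are set side by side without a test. Without TGF-β, Lce1g was at 315 FPKM with siNC but at 48.5 and 34.6 FPKM in untransfected EpRas cells, where the knockdown libraries had 51.0 and 51.8 FPKM. Sprr1a was at 18.5 FPKM with siNC and did not pass 0.255 FPKM in untransfected EpRas cells, and Ivl was at 2.69 FPKM with siNC and did not pass 0.0884 FPKM. Klk8 was at 53.6 FPKM with siNC, 21.7 and 24.7 FPKM in untransfected EpRas cells and 22.6 and 26.4 FPKM with the pairs. Lce1f was at 6.53 FPKM with siNC, 0.542 and 0.583 FPKM in untransfected cells and 0.192 and 0.410 FPKM with the pairs. For these 5 genes the siNC library was the one apart. With TGF-β, Lce1g was at 634 FPKM with siNC, 320 and 244 FPKM in untransfected cells and 255 and 201 FPKM with the pairs. Lce1f then stood at 150.8 FPKM with siNC, 16.9 and 13.9 FPKM in untransfected cells and 29.9 and 43.3 FPKM with the pairs. Its knockdown libraries with TGF-β thus lay above the untransfected ones. Without TGF-β, Lce1h was also highest with siNC, at 77.6 FPKM, against 13.8 and 14.9 FPKM in untransfected EpRas cells and 6.48 and 2.10 FPKM with the pairs. Its knockdown libraries lay below the untransfected ones, and did so with TGF-β too, at 46.2 and 27.8 against 80.2 and 68.3 FPKM. Those of Lce1f lay below them without TGF-β, on 1 or 2 reads in each of these libraries. Whether transfection moved these genes was not tested.

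The 5 members between 1 and 5 FPKM were Lce1c, Lce1e, Lce3c, Klk6 and Sprr2h. Lce1c and Lce1e, which lie on the Lce1f side of the 3 expressed genes, had low counts: Lce1c was at 2.81 FPKM (19 reads) and Lce1e at 2.73 FPKM (18 reads) with siNC and TGF-β. In the knockdown libraries with TGF-β neither passed 0.213 FPKM, which was 1 read or none. Their transcripts share 23.9 and 22.7% of their 50-base words with other Lce genes. Klk6 was at 2.32 FPKM with siNC and at 1.33 and 1.42 FPKM with the pairs, and with TGF-β it was listed at 0 with siNC and at 0.373 and 0.104 FPKM with the pairs. It therefore had fewer reads with TGF-β in all 3 settings (18 against 0, 14 against 4 and 14 against 1). Sprr2h was at 3.21 FPKM in untreated siNC cells and listed at 0 in the 13 other libraries, and Lce3c did not pass 1.04 FPKM, which was 3 reads of 1 EpH4 library.

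At the threshold of 1 FPKM, Lce3c lay just inside at 1.04 FPKM, and Lce3f (0.986 FPKM) and Klk9 (0.850 FPKM) lay just outside. The other members above 0 were Lce1b, Lce1d, Lce1i, Lce1l, Klk4, Klk7, Klk12, Klk13, Klk14, Lor, Sprr1b and Sprr2g, none above 0.536 FPKM. Lor, the main protein of the mature epidermal envelope, had 3 and 4 reads in untreated and 2 and 1 reads in treated EpH4 cells (0.101 to 0.324 FPKM) and was listed at 0 in the 4 untransfected EpRas libraries. In transfected EpRas cells it had 6 reads with siNC and TGF-β (0.294 FPKM) and 2 and 3 reads with the first and second pair without TGF-β. Listed at 0 throughout were 7 Lce, 10 Sprr and 4 Klk genes, among them Klk5 and Klk11.

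Other genes of the pathways were counted from lists that had been chosen together with the members. Of 20 further envelope genes, 4 were tested in the untransfected cells. Crct1, a cysteine-rich gene of the same complex, and Evpl (envoplakin, a linker of the envelope to desmosomes) were called lower in untreated EpRas cells, by 2.93 ± 0.36 and 2.04 ± 0.18 on the log2 scale (limma, adjusted p = 0.00210 and 0.000437). With TGF-β, Crct1, Evpl and Dsp (desmoplakin) were called lower in EpRas cells. Crct1 and Evpl reached 5 FPKM in EpH4 libraries alone, so the filter fixed their direction between the lines. Of Dsp and Ppl, which reached it in both lines, neither was called without TGF-β, and with it Dsp was called lower, where 12.3% of all genes were.

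Ppl (periplakin), the partner of envoplakin, fell with TGF-β from 9.50 and 10.1 to 2.41 and 1.62 FPKM in EpH4 cells and from 11.6 and 8.93 to 1.34 and 0.798 FPKM in EpRas cells. Its log2 changes were -1.85 ± 0.21 and -2.45 ± 0.21 (limma, adjusted p = 0.00216 and 0.00144). Ppl and Crct1, which was also called lower in EpH4 cells, reached 5 FPKM in untreated libraries alone, so the filter fixed their direction with TGF-β. Of Dsp and Evpl, which it left free, Dsp was called higher with TGF-β in EpH4 cells, where 6.48% of all genes were, and neither was called in EpRas cells. Among siRNA libraries 2 of the 20 were tested, of which Ppl was called lower by the TGF-β term and none by the knockdown term (Ppl at -1.13 ± 0.36, limma, adjusted p = 0.145). Of all genes, 0.891% were called lower by the TGF-β term and 1.35% by the knockdown term. By the 2-fold criterion used above for single libraries, Ppl was lower with TGF-β, at 9.38 FPKM with siNC and 2.52 and 1.42 FPKM with the pairs, but not without TGF-β. With TGF-β, 3.71% of all genes were lower by this much.

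Of 7 keratins of differentiating or activated epidermis, Krt16 and Krt17 were tested. Both were called lower in EpRas cells, a direction that the filter fixed since they reached 5 FPKM in EpH4 libraries alone, with Krt17 at 17.0 and 18.6 FPKM in untreated EpH4 cells and 0 and 0.344 FPKM in EpRas cells. The level of Krt17 was called higher with TGF-β in EpH4 cells, by 0.88 ± 0.18 on the log2 scale (limma, adjusted p = 0.0255), where 6.48% of all genes were. Krt16, at 2.87 and 2.39 FPKM in untreated and 6.75 and 8.84 FPKM in treated EpH4 cells, reached 5 FPKM with TGF-β alone. In the siRNA table both keratins did so, with Krt16 at no more than 1.78 FPKM without and 5.05 to 6.87 FPKM with TGF-β and Krt17 at no more than 0.514 FPKM without and 2.74 to 11.5 FPKM with it. Neither was called with TGF-β in untransfected EpRas cells (limma, adjusted p = 0.555 and 0.214). Among 11 genes of the protease cascade and its inhibitors, 7 were tested, and 3 were called lower in untreated EpRas cells, where 9.11% of all genes were, and 6 with TGF-β, where 12.3% were. The largest change was in Slpi, an inhibitor of serine proteases, at 153 and 209 FPKM in EpH4 cells against 25.3 and 22.7 FPKM in EpRas cells. Next was St14 (matriptase), at 141 and 158 against 62.5 and 54.3 FPKM. Slpi was also called lower with TGF-β in EpRas cells (log2 change -2.79 ± 0.25, limma, adjusted p = 0.00158), where 1.92% of all genes were. With TGF-β in EpH4 cells none of the 7 was called, where 2.91% of all genes were called lower. The difference between the lines in this change of Slpi did not pass (-2.01 ± 0.36, limma interaction, adjusted p = 0.0649). The knockdown term called none of the 7, but with TGF-β 2 of the 7 were at least 2-fold lower than siNC by the mean of the pairs, where 3.71% of all genes were. These were Slpi (35.4 FPKM with siNC, 2.46 and 5.97 FPKM with the pairs) and Spint1 (63.7, 30.0 and 31.8 FPKM), given without a test. Untransfected EpRas cells with TGF-β were at 3.53 and 1.89 FPKM for Slpi and 19.1 and 21.7 FPKM for Spint1, so the siNC library was the one apart. Krt17, at 11.5 FPKM with siNC and TGF-β and 4.17 and 2.74 FPKM with the pairs, reached 5 FPKM in that siNC library alone.

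Of 15 regulators of epidermal differentiation, 7 were tested in untransfected cells. Trp63, the p63 gene of basal epithelium, was at 7.37 and 8.60 FPKM in untreated EpH4 cells and did not pass 0.197 FPKM in EpRas cells (log2 difference -3.03 ± 0.17, limma, adjusted p = 4.11e-05). It reached 5 FPKM in EpH4 libraries alone, so it could be called lower only. Elf3 was also called lower and Klf4 higher in untreated EpRas cells, and with TGF-β Elf3 was called lower and Fosl1 higher. Between the lines, 8.45% of all genes were called higher and 9.11% lower without TGF-β, and 8.92% and 12.3% with it. With TGF-β, Klf4 was called lower in both lines, by 1.10 ± 0.23 in EpH4 cells and 1.66 ± 0.23 in EpRas cells on the log2 scale (limma, adjusted p = 0.0290 and 0.00983). Its TGF-β term in the transfected cells, -1.53 ± 0.30, did not pass (limma, adjusted p = 0.0643). Junb, a subunit of AP-1, went the other way and was called higher with TGF-β in EpH4 cells and by the TGF-β term of the transfected cells, by 1.53 ± 0.31 and 1.34 ± 0.14 (limma, adjusted p = 0.0233 and 0.0111). In untransfected EpRas cells the change of Junb, 0.93 ± 0.31, did not pass (limma, adjusted p = 0.192). Elf3 was called lower with TGF-β in EpRas cells (-0.98 ± 0.17, limma, adjusted p = 0.0212). Of all genes, 6.48% were called higher and 2.91% lower with TGF-β in EpH4 cells, and 1.90% and 1.92% in EpRas cells. The TGF-β term of the transfected cells called 1.61% higher and 0.891% lower.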

How the data were processed

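Directional libraries of oligo(dT)-selected mRNA were read on an Ion Proton. The authors mapped them to mm10 by TopHat2 (2.0.11) with Bowtie2 and computed the deposited FPKM with Cuffdiff (Cufflinks 2.2.0), per the submitters' processing notes and the study's methods. The strand setting of the counting is not given in the sources used here. Untransfected and siRNA libraries were normalized in 2 separate runs, and no test crosses them. Genes with an OK status and at least 5 FPKM in any library of a table were tested (9100 and 9094 genes) on log2(FPKM + 1) with limma 3.58.1 in R 4.3.3, with 1 mean per untransfected group, and p-values were adjusted over all genes tested by the Benjamini-Hochberg method at 0.05. The limma script was tested on simulated data. The remaining steps ran in Python 3.11.15 (scipy 1.17.1, pandas 2.3.3, numpy 2.4.6).

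FPKM of low genes are whole multiples of 1 read. Reads were recovered within 0.03 of a whole number for 13 of 14 and 22 of 26 members above 0 in the untransfected and siRNA tables. Sprr2h was not resolved. Clopper-Pearson intervals (95%) cover counting error only. Floors of 3 reads per library do so for the library at 0 alone and take the reads of the other side as exact. Members at 5 FPKM or more in any library were described in full, those from 1 to 5 FPKM by their range and the others by name or count, and in each pathway list the called genes with the largest change were named. The members and lists were chosen with earlier results of these data known. Promoters, from RefSeq on GRCm38.p6, matched 44 of the 47 members by symbol, 11 of them among the 12 followed. A result for 1 gene of the lists is not reported here.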

Additional observations from a re-analysis of the deposited data

How the results depend on the processing

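Over alternative constants added to FPKM, filters, scaling, a mean-variance trend, fits of the compared groups alone and fits without 1 library, 588 of 668 recomputed values for 53 pairs of a member and a comparison kept their direction and their side of the threshold, except that Klk10 with siRNA pair 2 alone and no TGF-β was 0.19 above siNC on the log2 scale and that the Sprr1a TGF-β term was 0 without the siNC library with TGF-β, 54 lost a call, 8 gained one, 15 untested siRNA differences moved beyond the spread of the siRNA pairs and 3 changed sign. The sign changes were Klk8 between the lines with TGF-β (0.00996 without EpRas TGF-β replicate 1, with a range from -0.99 over fits without 1 library) and the Klk10 interaction (2.65 with 0.1 FPKM added and 0.048 without EpRas TGF-β replicate 2, with a range from -0.34 over fits without 1 library). Without either EpRas TGF-β library the treated group rests on 1 library that is assumed to vary like the other groups. The cause of these shifts was not tested.

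Counts of called members here include those whose direction the filter fixed. Called members in EpRas against EpH4 cells without TGF-β numbered 3, and 4 with 0.1 FPKM added or without a filter. They numbered 1 when the fit held the compared groups alone and 1 to 3 without 1 library. With TGF-β the 3 calls became 4 without EpRas TGF-β replicate 2. For TGF-β in EpH4 cells the 4 calls became 2 in that fit and 2 to 4 without 1 library, and for TGF-β in EpRas cells the 4 calls ranged from 3 to 5. The interaction had 0 calls, and 1 with either 0.1 or 5 FPKM added. In the siRNA table without a filter, the TGF-β term had 1 call and the knockdown term 0, against 4 each. They ranged from 1 to 2 and from 0 to 3 without 1 library (TGF-β and knockdown), and the cause was not tested. Members 2-fold lower or higher than siNC numbered 6 in each condition and 4 with 5 FPKM added.

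Over all genes, the fit of the compared groups alone gave 45 calls in place of 348 for TGF-β in EpRas cells. The unfiltered siRNA table gave 72 calls in place of 227 (TGF-β) and 42 in place of 193 (knockdown), and the interaction had 40 calls with a mean of 5 FPKM, 117 without a filter and 73 as reported. Without 1 library the knockdown term had 5 to 89 calls (5 without the untreated library of the first pair or the TGF-β library of the second) and the TGF-β term 36 to 82. The interaction had 11 to 133 (11 without either TGF-β library of EpH4 cells, 133 without EpRas TGF-β replicate 2), and TGF-β had 242 to 1153 in EpH4 cells and 135 to 407 in EpRas cells. Between the lines there were 736 to 2104 calls without TGF-β, against 1598, and 816 to 2370 with it, against 1935. The shares of all genes set beside the called members shift with these counts.

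Replicate numbers did not pair the samples, since the deviations of same-numbered libraries correlated at -0.347 to 0.0785 between groups. With the replicate number as a block the called members were 3 and 3 between the lines without and with TGF-β, 4 and 4 for TGF-β in EpH4 and EpRas cells and 0 for the interaction, so no count of members changed. The calls over all genes fell to 547 in place of 855 in EpH4 cells, to 222 in place of 348 in EpRas cells and to 31 in place of 73 for the interaction.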
